A study of Rattus norvegicus with 63 samples.

Results

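Cefuroxime (CFX), a cephalosporin antibiotic, and nifedipine (Nif), a calcium channel blocker used to lower blood pressure, are the 2 compounds of this toxicogenomics series that are classed as non-carcinogens (NC). Their effect on liver miRNAs was followed in 9 of the 63 arrays, each of which holds the liver RNA of 1 rat. The 9 rats were taken by their sample labels and comprise 3 rats given CFX at 250 mg/kg/d, 3 rats given Nif at 3 mg/kg/d, and 3 rats of control group 2, which received the vehicle alone and are called MC set 2. All 9 were male Wistar Hanover rats, 8 to 10 weeks old when they entered the study, and all were dosed by gastric gavage for 14 days. The labels name the vehicle methylcellulose, whereas the methods of the study name carboxymethyl cellulose for both compounds. Treated rats with some histopathological change in the liver were selected for the arrays from larger dose groups, so they are not a random draw. The doses of the compounds differ, and CFX and Nif belong to unrelated chemical classes, so the comparison between them is one of treatments and not of structures. Each array reads a piece of whole liver, in which fewer cells of a type and less RNA per cell cannot be told apart.

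A miRNA is a short RNA that binds messenger RNAs, mainly through its bases 2 to 8, the seed, and lowers their translation or stability. In the liver, miR-122 is the characteristic miRNA of hepatocytes, and miR-192 and miR-194 are made from shared precursors in liver, gut and kidney. Among the miRNAs that are known to respond to liver damage and tumour promotion, miR-34a is a target of p53, miR-21 accompanies injury and growth, and the let-7 family restrains growth in differentiated cells. The question put to these rats is what compounds without known liver carcinogenicity do to such miRNAs, since carcinogens are judged against them.

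The mature sequences of the miRNAs on which the results turn are printed from RefSeq (build GRCr8), where 26 of the 29 miRNAs named in the text by rule and all 8 let-7 members were found under their current names. The seed is in capitals. The first 8 are the let-7 family, shown because they share a seed and 7 of them lay below every control rat after Nif, followed by 3 miRNAs whose level went with the slide, 2 with the smallest p between CFX and Nif, and 4 liver and damage markers.
let-7a: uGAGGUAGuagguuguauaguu
let-7b: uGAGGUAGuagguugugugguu
let-7c: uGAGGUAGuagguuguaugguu
let-7d: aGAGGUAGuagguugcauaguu
let-7e: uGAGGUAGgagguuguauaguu
let-7f: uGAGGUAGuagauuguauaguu
let-7i: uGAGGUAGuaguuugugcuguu
miR-98: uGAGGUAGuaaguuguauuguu
miR-139-3p: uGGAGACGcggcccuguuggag
miR-125a-3p: aCAGGUGAgguucuugggagcc
miR-878: gCAUGACAccauacuggguaga
miR-125b-5p: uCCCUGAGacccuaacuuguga
miR-26b: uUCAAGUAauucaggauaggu
miR-122: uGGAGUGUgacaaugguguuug
miR-192: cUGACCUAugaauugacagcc
miR-34a: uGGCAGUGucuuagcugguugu
miR-21: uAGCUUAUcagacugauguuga

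Several let-7 genes lie close together, and in GRCr8 let-7e, at chr1:67350243-67350264, is a near neighbour of miR-125a-3p. In the same build, miR-139-3p is at chr1:165290901-165290922 on the plus strand, miR-125a-3p at chr1:67350727-67350748 on the plus strand, miR-878 at chrX:150474263-150474284 on the minus strand and miR-34a at chr5:165815971-165815992 on the plus strand. Outside the let-7 family, no other seed was shared among the named miRNAs that had a sequence.

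Each array measured 350 rat miRNAs with 7000 spots, and 162 miRNAs that the scanner software marked as detected on at least 1 of the 63 arrays were tested. Of these, 103 were detected on all 9 arrays and 26 on none of the 9. The scanner software rated all 9 arrays as in range, no spot was saturated, and 114 to 131 miRNAs were detected per rat. The median spot brightness was 77 units for CFX replicate 3, which was scanned on day 3, and up to 153.5 units for the other rats, which were scanned on day 2. Replicates 1 and 2 of CFX and all 3 rats of MC set 2 shared slide 7, CFX replicate 3 was on slide 9, and the 3 Nif rats were on slide 8. No control rat of MC set 2 was on slide 8, so for Nif the slide and the compound cannot be told apart within the labelled groups. Slide 8 did hold 2 vehicle rats filed under another methylcellulose group, MC set 1, and these give a comparison within the slide. Levels are given as normalized log2 brightness, and a difference is the mean of 3 treated rats minus the mean of 3 control rats on that scale, tested with limma across all 63 arrays in 21 groups. Background was not subtracted, following the methods of the study, so a difference understates the change of a dim miRNA.

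After 14 days of CFX, no miRNA was called. None of 162 miRNAs passed an adjusted p of 0.05 (0% called), the smallest adjusted p was 0.987, and 1 miRNA had an unadjusted p under 0.05 in limma. The median absolute difference was 0.015, and the differences ran from -0.22 for miR-139-3p to 0.25 for miR-451. For 160 miRNAs the 95% interval of the difference lay between -0.5 and 0.5 on this scale, in which background is left. On the processed signal of the scanner software, which has background subtracted, it did so for 72 of 162. For 16 of 162 miRNAs (9.88%) the 3 CFX rats lay beyond all 3 control rats, 9 of them above and 7 below.

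The miRNA with the smallest unadjusted p after CFX was miR-185. Its levels were 7.50, 7.48 and 7.50 in the CFX rats and 7.45, 7.47 and 7.48 in the control rats. The groups did not overlap, but the difference was only 0.028 ± 0.012 (SE, n = 3 per group, adjusted p = 0.987 in limma), and the scanner software rated it as well above background on none of the 9 arrays, so no fold change is given. For miR-193, listed here with the hepatocyte miRNAs, the levels of the 3 CFX rats were 8.99, 9.10 and 9.09, against 8.99, 8.83 and 8.87 in the control rats. The difference was 0.16 ± 0.11 (SE, adjusted p = 0.987 in limma), and the lowest CFX rat lay above the highest control rat by less than the second decimal. In the authors' table of normalized values the difference of miR-193 had the opposite sign, -0.20. The columns of MC set 2 there followed the arrays filed as MC set 1, as described below. Against MC set 1 the scanner difference of miR-193 in CFX was -0.14. The other miRNAs that ranked first after CFX were let-7a, miR-139-3p, miR-140* and miR-203. For miR-140*, the other arm of the miR-140 precursor, the difference was 0.034, and for miR-203, a miRNA best known from skin, it was 0.033, both with all CFX rats above all control rats.

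After 14 days of Nif, again no miRNA was called. None of 162 passed an adjusted p of 0.05 (0% called), with a smallest adjusted p of 0.276, but 20 miRNAs had an unadjusted p under 0.05 in limma, 7 higher and 13 lower. The 3 Nif rats lay beyond all 3 control rats for 41 of 162 miRNAs (25.3%), 14 above and 27 below. The differences ran from -0.33 for miR-139-3p to 0.22 for miR-451. The 95% interval lay between -0.5 and 0.5 for 159 miRNAs, and on the processed signal for 62 of 162. Within slide 8, against the 2 vehicle rats of MC set 1, the differences of all 20 miRNAs with an unadjusted p under 0.05 were smaller in size. Their median size was 0.0136 instead of 0.128, 13 had the same sign and none had an unadjusted p under 0.05 in limma. The 20 were picked by their difference from MC set 2, so smaller differences from other vehicle rats follow in part from that choice. With 2 control rats the test is also weaker. The share of the slide was not tested.

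Of the 20, 11 were well above background on all 9 arrays, among them let-7a, let-7b, let-7d, let-7i and miR-192, whereas 2 were well above background on none of them. The 6 miRNAs that ranked first after Nif by the naming rule were miR-203, miR-125a-3p, miR-878, miR-139-3p, let-7b and miR-33. For miR-203 the levels were 7.59, 7.58 and 7.59 in Nif rats and 7.51, 7.53 and 7.56 in control rats. The groups were apart, with a difference of 0.052 ± 0.017 (SE, adjusted p = 0.276 in limma), but within slide 8 the difference was -0.012. For miR-33, which lies in a gene of sterol synthesis control and is known for its part in cholesterol transport, the difference was 0.044 against MC set 2 and -0.0045 within slide 8.

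The lowest difference of both compounds was that of miR-139-3p, a miRNA from an intron of a phosphodiesterase gene. Its levels in MC set 2 were 7.55, 7.92 and 7.91, in CFX rats 7.66, 7.59 and 7.47, and in Nif rats 7.47, 7.46 and 7.45. All Nif rats lay below all control rats (difference -0.33 ± 0.12, SE, adjusted p = 0.276 in limma), whereas CFX rats overlapped them (-0.22 ± 0.12, adjusted p = 0.987). It was well above background on all control arrays, on 2 of the 3 CFX arrays and on none of the Nif arrays. The level followed the slide across the series. On slides 4 to 7 it was 7.55 to 8.14 on all 31 arrays, of every group there, and on the other slides it was 7.43 to 7.50 on all 32 arrays. The Nif rats shared the low level with MC set 1, whose vehicle rats had 7.46, 7.44 and 7.46, and the difference of Nif from the vehicle rats of its own slide was 0.0081. On slide 7, where CFX replicates 1 and 2 could be set against MC set 2, the difference was -0.17. The only CFX rat at the low level, replicate 3, was also the only one away from slide 7.

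**Figure D1:**
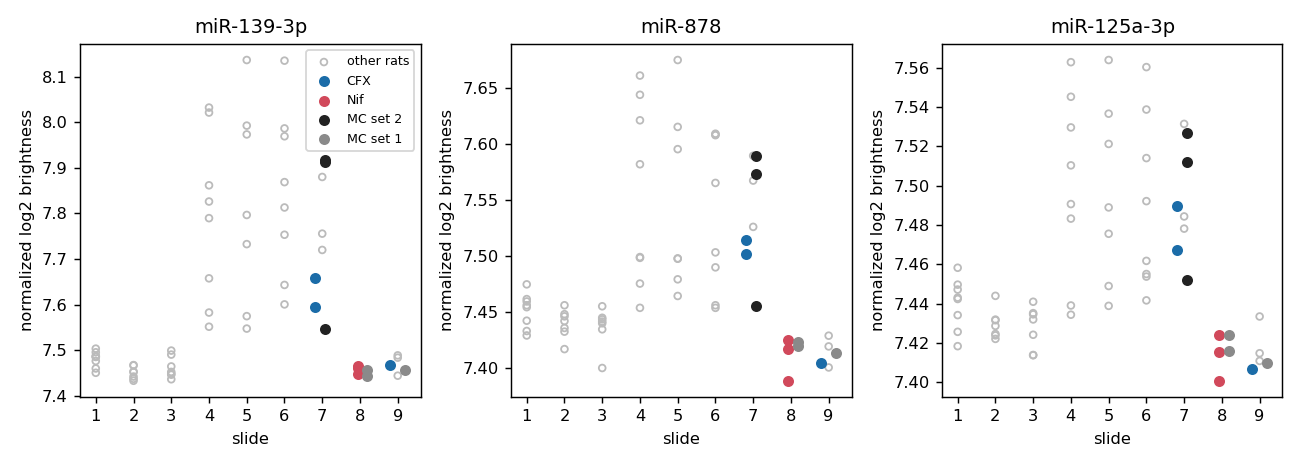
Normalized log2 brightness of miR-139-3p, miR-878 and miR-125a-3p (vertical axes) on each of the 9 slides (horizontal axes), with 1 point per rat. CFX, Nif, MC set 2 and MC set 1 are coloured and all other rats are open circles. The levels on slides 4 to 7 reach 8.14 for miR-139-3p, while the Nif rats and the vehicle rats of MC set 1 on slides 8 and 9 lie together at or below 7.47.

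A further 5 miRNAs of low brightness were detected on slides 4 to 7 alone. miR-878, a miRNA of an X-linked cluster known from testis, was detected on 19 of 31 arrays there and on 0 of 32 elsewhere. miR-125a-3p, the minor arm of miR-125a, was detected on 15 of 31 and 0 of 32, miR-345-3p on 24 of 31 and 0 of 32, miR-743a on 15 of 31 and 0 of 32, and miR-23a* on 2 of 31 and 0 of 32. miR-345-3p, miR-743a and miR-23a* were chosen after their values were seen. The difference of miR-23a* in Nif was -0.056 (adjusted p = 0.292 in limma), against -0.0045 within slide 8. The levels of miR-878 were 7.51, 7.50 and 7.40 in CFX rats, 7.42, 7.43 and 7.39 in Nif rats and 7.46, 7.59 and 7.57 in control rats. The low CFX rat was again replicate 3 on slide 9. In Nif the difference of miR-878 was -0.13 and that of miR-125a-3p -0.083 (adjusted p = 0.276 in limma for both), against -0.011 and -0.0065 within slide 8. miR-878 was well above background on 1 of the 9 arrays, that of a control rat, as was miR-125a-3p, so no fold change is given for them.

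The processed signal of the scanner software gave calls for most of these miRNAs. With that signal, which has background subtracted, scaled by the 75th percentile of the miRNAs detected on all arrays, 5 miRNAs were called lower in Nif than in MC set 2, namely miR-125a-3p, miR-139-3p, miR-345-3p, miR-743a and miR-878. On that scale miR-139-3p had 1.97, 1.63 and 1.87 log2 units in Nif rats against 2.55, 5.52 and 5.30 in control rats, so that 2 control rats carried the difference of -2.63 (adjusted p = 0.0472 in limma). The vehicle rats of MC set 1 had 1.45, 1.46 and 1.93. Without control replicate 11, or without control replicate 12, 0 miRNAs were called on that scale, and with slide as a block in the model 0 were called. Scaling over all probes called 11 miRNAs in Nif, the same 5 lower and 6 higher, and moved the median difference of all miRNAs to 0.25. The 6 were miR-125b-5p, miR-152, miR-193, miR-203, miR-31 and miR-99a, with differences of 0.60 to 0.76, and with slide as a block this count was also 0. CFX gave 0 calls on both scales, with 10 and 9 unadjusted p under 0.05.

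The let-7 family, whose members share the seed GAGGUAG, was detected on all 9 arrays for all 8 members measured. In Nif, 7 of the 8 lay below all 3 control rats, beside 27 of 162 over all miRNAs (16.7%), and 4 had an unadjusted p under 0.05 but none was called. In CFX, 3 of the 8 lay below, beside 7 of 162 (4.32%). The median difference of the family in Nif was -0.099, against -0.0011 over all miRNAs. let-7b had 9.47, 9.52 and 9.62 in Nif rats, 9.71, 9.66 and 9.63 in CFX rats and 9.73, 9.72 and 9.71 in control rats. The control rats were close to each other and above all treated rats, with a difference of -0.18 ± 0.067 (SE, adjusted p = 0.276 in limma) for Nif and -0.055 for CFX. let-7a had 10.79, 10.87 and 10.86 in Nif rats, 10.94, 10.97 and 10.67 in CFX rats and 10.98, 10.97 and 11.01 in control rats. Here CFX replicate 3 was lowest, and the differences were -0.15 for Nif and -0.13 for CFX.

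The differences of the let-7 family varied with the vehicle rats they were taken from. MC set 2 itself lay above MC set 1 by a median of 0.098 over the 8 members, with 5 of the 8 above all rats of set 1, beside 11.1% of all miRNAs, and 3 with an unadjusted p under 0.05, none of them called. Against MC set 1 the median difference of Nif was -0.015 with no unadjusted p under 0.05, against MC set 5 it was -0.056, and within slide 8 it was -0.033. In CFX the family median was -0.045 against MC set 2 and 0.029 against MC set 1. let-7b was -0.11 in Nif both against MC set 1 and within slide 8. With scaling over all probes the family median in Nif was 0.19, which lay 0.064 below the median of all miRNAs on that scale. In the authors' value table, whose columns of MC set 2 followed the arrays filed as MC set 1, it was -0.055. The remaining member of the seed family, miR-98, differed by 0.0044 in Nif.

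**Figure D2:**
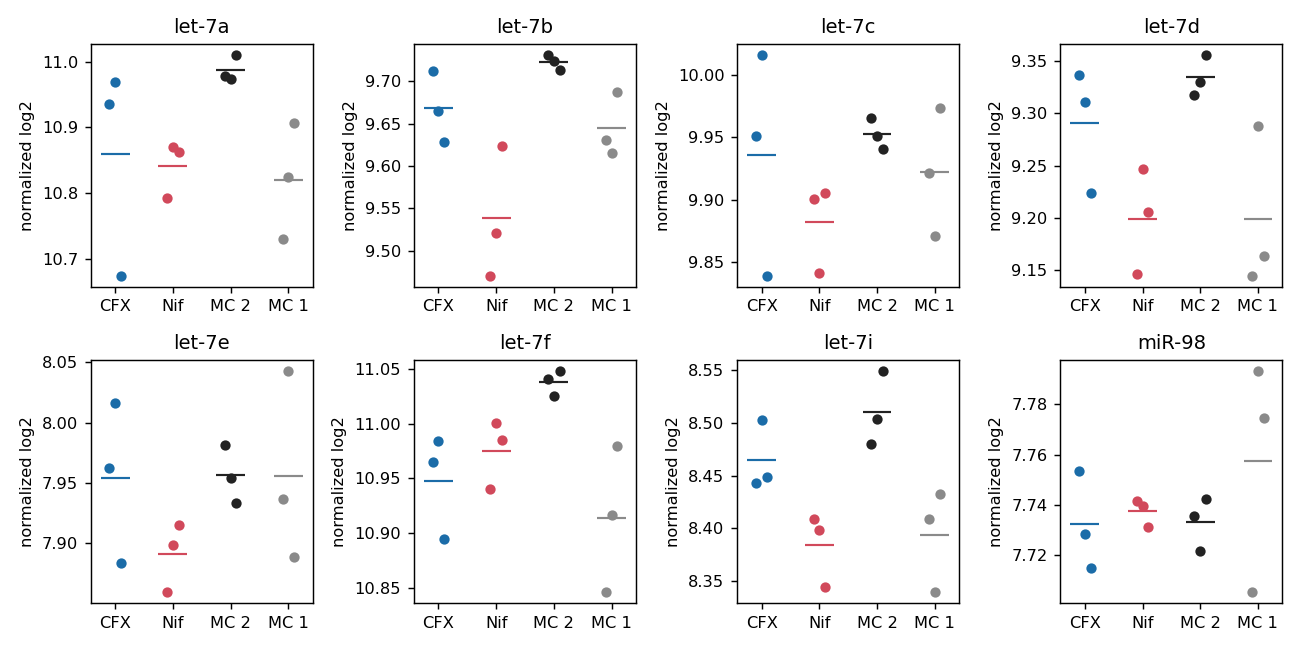
Normalized log2 brightness (vertical axes) of the 8 let-7 family members in the 3 rats each of CFX, Nif, MC set 2 (MC 2) and MC set 1 (MC 1), with a point per rat and a bar at the group mean. For let-7b, Nif rats lie at 9.47 to 9.62 and MC set 2 at 9.71 to 9.73, and for most members MC set 1 reaches lower than MC set 2.

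Both compounds together were set against MC set 2 with the mean of the 6 treated rats. None of 162 miRNAs was called (0% called, smallest adjusted p = 0.575 in limma), and 12 had an unadjusted p under 0.05, of which 10 were lower. The compounds share the control rats, so a deviation of a control rat enters both differences. The value of miR-139-3p for both together was -0.28 and that of miR-451 was 0.23. With all methylcellulose rats of the series as reference, 2 miRNAs were called in Nif and 4 in both compounds together, all of them higher. miR-31 was 0.17 higher in Nif and 0.12 higher in both (adjusted p = 0.046 and 0.0363 in limma), miR-324-3p 0.13 and 0.093 higher, and miR-140* and miR-664 0.054 and 0.05 higher in both. These 4 are named because that reference called them. It includes MC set 6, scanned on day 1, and without that set no miRNA was called.

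CFX and Nif were also compared with each other, in which no control rat takes part. None of 162 miRNAs was called (0% called, smallest adjusted p = 0.998 in limma), 3 had an unadjusted p under 0.05, and the 3 rats of one compound lay beyond the 3 of the other for 28 miRNAs (17.3%). The 3 were miR-125b-5p, miR-26b and miR-99a, all lower in CFX rats. miR-125b-5p, a miRNA that targets p53 pathway genes, had 8.72, 8.76 and 8.85 in CFX rats and 9.08, 8.91 and 8.98 in Nif rats. The groups did not overlap, and the difference of CFX minus Nif was -0.22 ± 0.077 (SE, 95% interval -0.37 to -0.06, adjusted p = 0.998 in limma). The control rats of MC set 2, at 8.76, 8.81 and 8.85, lay with the CFX rats, while those of MC set 1, at 8.996, 8.786 and 8.958, spanned both. In all 17 alternatives the difference had the same sign, from -0.54 to -0.17, with no call in any of them.

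miR-26b, which belongs to a family that slows the cell cycle, had 9.86, 9.90 and 9.84 in CFX rats and 10.01, 10.00 and 9.94 in Nif rats. These groups were apart as well, by -0.11 (95% interval -0.22 to -0.011). For miR-99a, of the miR-99 and miR-100 family that acts on mTOR, the levels were 9.02, 9.16 and 9.24 in CFX rats and 9.52, 9.25 and 9.22 in Nif rats, which overlapped, with a difference of -0.19. The next miRNAs by the rule were miR-101a (-0.11), miR-352 (-0.031) and let-7b (0.13). CFX was on slides 7 and 9 and Nif on slide 8, so this comparison has no slide in common. The 95% interval of the difference reached 0.054 to either side at the median over all miRNAs, and for 160 of 162 it lay between -0.5 and 0.5. On the processed signal it did so for 66 of 162.

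**Figure D3:**
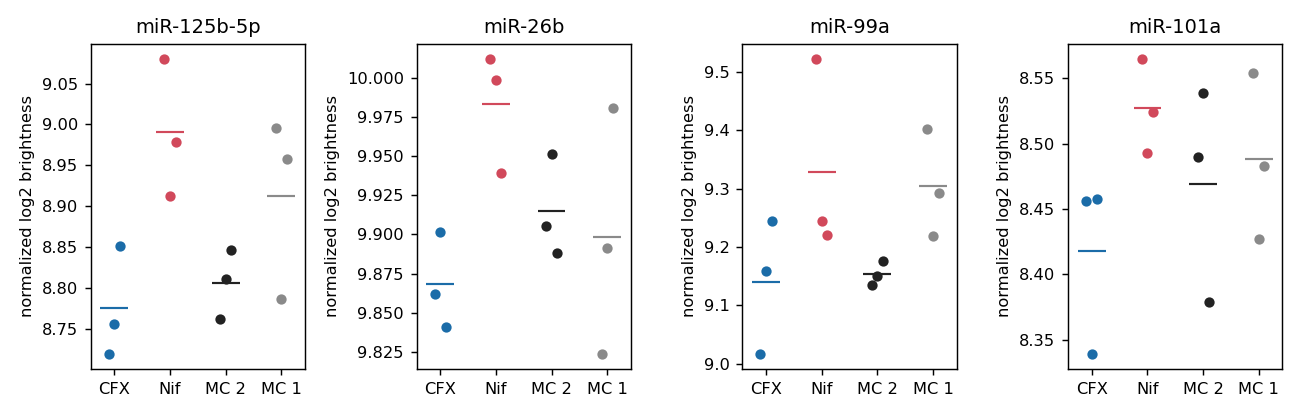
Normalized log2 brightness (vertical axes) of miR-125b-5p, miR-26b, miR-99a and miR-101a in the 3 rats each of CFX, Nif, MC set 2 (MC 2) and MC set 1 (MC 1), with a point per rat and a bar at the group mean. For miR-125b-5p the CFX rats lie at 8.72 to 8.85 and the Nif rats at 8.91 to 9.08.

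The hepatocyte miRNAs showed no call in either compound. Of 11 listed, 8 were tested, and their median difference was -0.021 in CFX and 0.011 in Nif, beside 0.0021 and -0.0011 over all miRNAs. The brightest of them, miR-122, had 14.67 in all 3 CFX rats, 14.67 in all 3 Nif rats and 14.67, 14.66 and 14.67 in control rats. Quantile normalization narrows the range of the brightest spots, although miR-122 was called lower in 2 carcinogens, with a difference down to -0.33. On the processed signal, scaled over the detected miRNAs, miR-122 had 14.71, 14.82 and 14.77 in CFX rats and 14.58, 14.68 and 14.62 in Nif rats. The control rats had 14.66, 14.72 and 14.82 and overlapped both compounds, while all CFX rats lay above all Nif rats. The 95% intervals on that scale were -0.18 to 0.25 for CFX and -0.32 to 0.11 for Nif.

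miR-192 had 10.89, 10.93 and 10.92 in CFX rats, 10.94, 10.74 and 10.90 in Nif rats and 11.06, 10.96 and 10.97 in control rats. All treated rats lay below all control rats, by -0.085 in CFX and -0.14 in Nif (adjusted p = 0.987 and 0.381 in limma). Within slide 8 the Nif difference was 0.029, so its sign depended on the vehicle rats. For miR-194, which shares precursors with miR-192, the differences were -0.06 and -0.049, with overlap in both compounds.

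The miRNAs that mark damage, p53 activity and growth were near the control level. miR-34a had 7.65, 7.74 and 7.61 in CFX rats, 7.71, 7.71 and 7.73 in Nif rats and 7.71, 7.69 and 7.62 in control rats, which overlapped throughout. Its difference was -0.0089 in CFX (95% interval -0.25 to 0.24) and 0.039 in Nif (-0.20 to 0.28). Among the 10 carcinogens of the series, each against its own control set, the difference of miR-34a ran from -0.23 to 3.44, and 6 of the 10 were called higher. On the processed signal the intervals of miR-34a were wider, -0.76 to 0.43 in CFX and -0.40 to 0.79 in Nif.

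miR-21 had 12.53, 12.45 and 12.47 in CFX rats, 12.44, 12.39 and 12.45 in Nif rats and 12.59, 12.46 and 12.19 in control rats. The spread of the control rats covered all treated rats, and the differences were 0.073 and 0.011. In the carcinogens the difference of miR-21 ran from -0.27 to 0.70. Of the 12 miRNAs listed for injury and growth, 11 were tested, and none was called or lay beyond the controls in either compound. Over all miRNAs, 9.88% lay beyond them in CFX and 25.3% in Nif, so few of 11 would at these shares. Of the miR-200 family, epithelial miRNAs that in liver mark bile duct cells, all 5 were tested and their median difference was -0.022 in CFX and -0.043 in Nif. miR-200b differed by -0.058 and -0.043, while 3 carcinogens were called higher, up to 0.69. miR-29b, a regulator of collagen genes, differed by -0.061 and -0.024, and miR-93, of the miR-106b cluster that promotes the cell cycle, by 0.012 and 0.013. In carcinogens miR-29b was called higher in 4 and miR-93 in 7 of 10, with a median difference of 0.052 for miR-93. The contrast for miR-93 varied with the control set. Against MC set 1, the control set of acetamide and methapyrilene among others, miR-93 was 0.043 higher in CFX and 0.044 higher in Nif. The unadjusted p in limma were 0.0225 and 0.0181, without a call, and against MC set 5 the differences were 0.011 and 0.013. Within slide 8 miR-93 was 0.058 above the vehicle rats of MC set 1 in Nif, with an unadjusted p of 0.00547 in limma and no call.

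miR-195, of the miR-15 family that holds back cell division, was 0.096 above control in CFX and 0.094 in Nif, with overlap in both (adjusted p = 0.987 and 0.9 in limma). In the carcinogens its difference ran from -0.36 to 0.074, and 3 were called lower. Within slide 8 the Nif difference was -0.0098. In the authors' value table, whose columns of MC set 2 followed the arrays filed as MC set 1, the differences were -0.061 in CFX and -0.041 in Nif. Against MC set 1 the scanner differences were -0.011 and -0.013, so the sign of miR-195 varied with the vehicle rats.

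**Figure D4:**
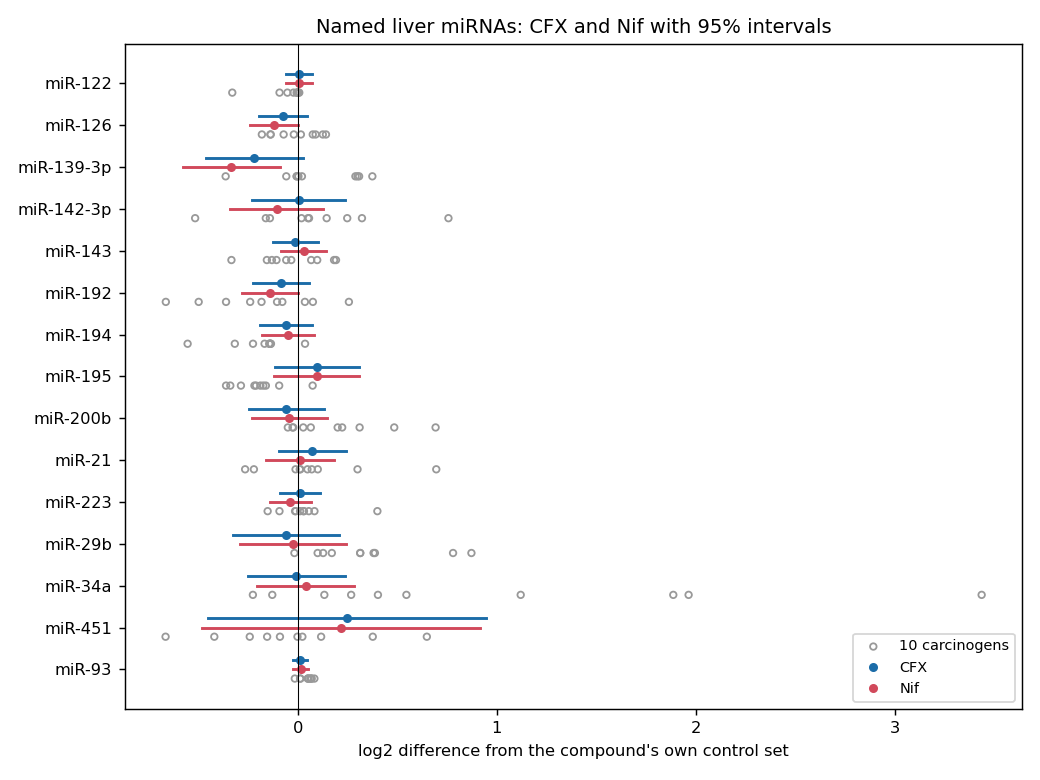
Differences in normalized log2 brightness from the compound's own control set (horizontal axis) for 15 named liver miRNAs, as points with 95% intervals for CFX and Nif and as open circles for each of the 10 carcinogens. The intervals of CFX and Nif include 0 for all but miR-139-3p and miR-192 in Nif, and the open circles of miR-34a reach 3.44.

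Markers of other cells in the liver gave no call. All 5 leukocyte miRNAs of the list that were detected in these rats, among them miR-223 of neutrophils and monocytes and miR-142-3p of blood cells, had a summed normalized brightness of 1470 to 1520 in CFX, 1400 to 1490 in Nif and 1440 to 1530 in control rats, together with 1 that was not detected. miR-223 had 7.84, 7.81 and 7.87 in CFX rats, 7.79, 7.79 and 7.79 in Nif rats and 7.85, 7.84 and 7.80 in control rats. The Nif rats lay below all control rats, with a difference of -0.038 (adjusted p = 0.9 in limma). Within slide 8 the difference of miR-223 was -0.12, with an unadjusted p of 0.036 in limma and no call. miR-142-3p differed by 0.0032 in CFX and -0.11 in Nif, with overlap in both.

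The red cell miRNAs miR-144 and miR-451, from 1 gene cluster and carried by blood in the liver, varied between rats. miR-451 had 9.95, 9.71 and 10.21 in CFX rats, 10.28, 9.97 and 9.53 in Nif rats and 9.58, 9.55 and 9.99 in control rats. The groups overlapped, and the differences of 0.25 in CFX and 0.22 in Nif had intervals from -0.45 to 0.95 and from -0.48 to 0.92. Within slide 8 the difference of miR-451 in Nif was 0.31, and with slide as a block in the model it was -0.10, 1 of 2 alternatives of 31 with that sign. The amount of blood in each piece of liver was not tested. For miR-126 of endothelial cells the differences were -0.074 in CFX and -0.12 in Nif (adjusted p = 0.987 and 0.381 in limma). All Nif rats lay below all control rats for miR-126, but within slide 8 its difference was -0.0054. For miR-143 of smooth muscle and stellate cells the differences were -0.013 in CFX and 0.029 in Nif. miR-145, its neighbour, was detected on none of the 63 arrays. Of the miRNAs of striated muscle and of pancreas and gut, none was detected on the 9 arrays. Of the neural miRNAs, miR-219-5p was detected on 8 of the 9 arrays and miR-128 on 1, and both were well above background on 0. In addition, 3 of 32 miRNAs of the imprinted Dlk1-Dio3 cluster were tested, without a call.

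The miRNAs that the study selected to separate carcinogens from NC were all measured. Of the 25 miRNAs of its C vs. NC signature and the 25 of its NGC vs. NC signature (non-genotoxic carcinogens against NC), none was called in CFX or Nif. Their median difference was -0.0028 and -0.0061 in CFX and -0.016 and -0.016 in Nif. These signatures were chosen on the same rats and are no independent evidence. The lowest difference in both lists was that of miR-139-3p.

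The size of the change over all 162 miRNAs was measured by the root mean square of the log2 differences. It was 0.0454 for CFX and 0.0661 for Nif, the lowest of all 15 compounds, and 0.0924 to 0.302 for the 10 carcinogens. The mean of the NC minus that of the carcinogens was -0.109, with p = 0.0606 when the class of the 12 compounds was permuted (exact, two-sided, 66 assignments). No p below 0.0152 can come from so few assignments. CFX and Nif share their control set and are not independent. Vehicle rats set against each other gave values of the same size, with 0.0385 to 0.0639 between MC sets 1, 2 and 5, and 0.0959 to 0.112 between any of these and MC set 6. In calls, the carcinogens ranged from 3 of 162 miRNAs (1.85%) for methylcarbamate to 60 (37.0%) for diethylstilbestrol (DES), beside 0 for CFX and Nif. Of the 10 carcinogens, 5 were given for 3 or 7 days and the others for 14 days, and all had other control sets. CFX and Nif shared the 14 days of their controls. By the labels, MC sets 1 and 5 were also dosed for 14 days, although the methods describe time-matched controls. DES and piperonyl butoxide (3 days) were set against MC set 5, and methapyrilene (7 days) against MC set 1. Some carcinogens also differed from their control set in slide and scan day. DES was on slide 3, scanned on day 1, and its MC set 5 was on slides 5 and 6, scanned on day 2. For miR-139-3p, whose level followed the slide, the difference was -0.36 in DES and 0.37 in acetamide. The share of slide and of dosing time in the size and calls of the carcinogens was not tested. DES and dehydroepiandrosterone (DHEA) appear exchanged between the scanner files and the authors' value table. DES was set against MC set 5 and DHEA against MC set 1. If exchanged, the 60 calls of DES and the 30 of DHEA would set the arrays of 1 compound against the controls of the other. Both counts are therefore in doubt. As described below, the columns of MC sets 1 and 5 in that table also followed arrays filed under other sets. MC set 1 also served acetamide, methapyrilene and methylcarbamate, and MC set 5 piperonyl butoxide and ethionine. It is not known which arrays are their controls, so their counts are in doubt as well. The ranges and call counts of single miRNAs over the 10 carcinogens use all compounds and control sets as filed. With the arrays assigned as in the table, the difference in size was -0.11 (exact permutation p = 0.0606). The difference in size passed p = 0.05 with the authors' value table, with normexp background correction and with the median in place of the root mean square.

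**Figure D5:**
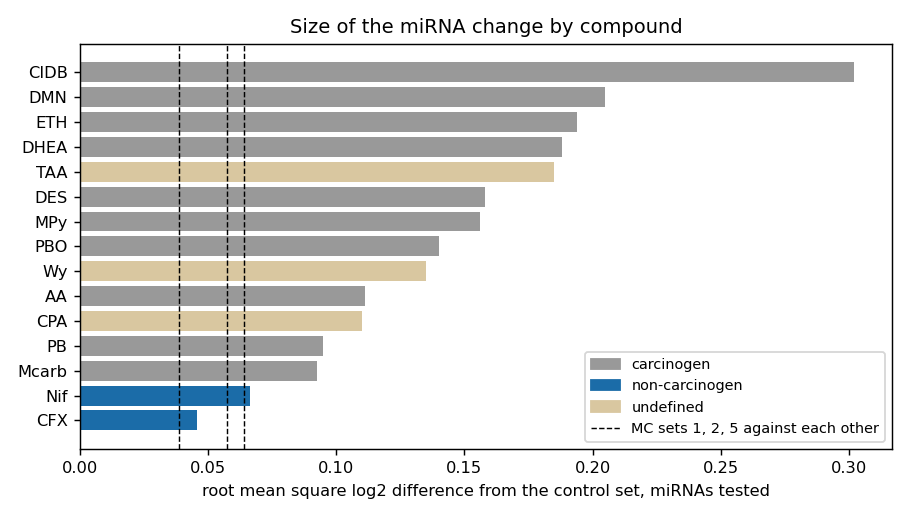
Root mean square log2 difference from the control set over 162 miRNAs (horizontal axis, from 0) for each of the 15 compounds, with bars for carcinogens, non-carcinogens and undefined compounds, and dashed lines for MC sets 1, 2 and 5 set against each other. CFX (0.0454) and Nif (0.0661) are the shortest bars and lie near the dashed lines at 0.0385 to 0.0639.

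For 135 of the tested miRNAs the authors also deposited log2 values under the same sample names. Its columns of CFX and Nif followed the scanner readings of their own arrays, with correlations of 0.848 to 0.911 over 71 miRNAs. Its columns of MC set 2 did not, and followed the arrays filed as MC set 1 with correlations of 0.851 to 0.908, against 0.397 to 0.675 with their own. In turn, the columns of MC set 1 followed the arrays of MC set 5 (0.864 to 0.885). Those of MC set 5 followed the arrays of MC set 2 (0.864 to 0.907). By the table's assignment, the 2 vehicle arrays on slide 8 would be those of MC set 2, the control set of Nif. The correlations run over miRNAs, not over independent rats, and it is not known which assignment is right. The methods describe RMA without background correction for such values, which run from 2.551 to 14.85 log2 units in the table, and their exact scale is not known. In the table miR-139-3p had 4.40, 4.14 and 3.21 in CFX rats, 3.22, 3.15 and 3.18 in Nif rats and 3.13, 2.92 and 3.28 in the columns of MC set 2, so that the differences were 0.81 and 0.074 and no longer negative. miR-34a had 4.52, 5.04 and 4.20 in CFX rats, 4.85, 4.87 and 5.01 in Nif rats and 5.31, 4.78 and 5.64 in control columns, with differences of -0.66 and -0.33. let-7b was 0.047 and -0.18 there. With these values no miRNA was called, and 8 had an unadjusted p under 0.05 for CFX and 4 for Nif. With the scanner arrays assigned as in the table, 0 miRNAs were called, with 5 and 6 unadjusted p under 0.05.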

How the data were processed

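Liver miRNAs were measured on single-colour Agilent arrays, 1 per rat, and groups follow the labels. Per the file headers, the authors' scanner files hold spot intensity read by Agilent Feature Extraction 10.7.3.1, and the authors' deposited value table holds log2 values. The submitters' processing notes name RMA, without its settings. From the mean intensity without background correction, outlier and control spots were dropped, arrays were quantile normalized and, after averaging spots, the log2 values of a miRNA's probes were summarised by median polish. Normalization ties each value to the other spots of the array, and no depth applies. Since the labels give separate rats, p-values measure the spread between rats. limma 3.58.1 in R 4.3.3 was fitted over all 63 arrays in 21 groups, with Benjamini-Hochberg adjustment over 162 miRNAs. The steps were tested on simulated data. Named were, per comparison, up to 10 called miRNAs with the largest change or, failing 6, those of smallest p, detected on at least 2 of the 3 arrays of a group, plus 16 liver miRNAs. Members, rule and lists were chosen with earlier results of these data known. The alternatives were the value table, 2 scalings of the processed signal by the 75th percentile, normexp with an offset of 50, other detection filters, slide or scan day as a block, other control rats, other assignments of arrays, a model of the 9 arrays and leaving out each rat. Comparisons within a slide, and the processed signal with slide as a block, within slide or without a control rat, were added after seeing the data.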

Additional observations from a re-analysis of the deposited data

How the results depend on the processing

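CFX gave 0 calls under every alternative run, with 0 to 10 unadjusted p under 0.05 in limma. For CFX against Nif the count was likewise 0 throughout. Nif gave 5 calls with the processed signal scaled over detected miRNAs and 11 when scaled over all probes. Without control replicate 10 these became 7 and 19, and without control replicate 11 or 12 they were 0. Within slide 8 they were 1 (miR-350, well above background on none of the 9 arrays) and 3 (miR-152, miR-350 and miR-93), and with slide as a block 0. With all methylcellulose rats as reference Nif gave 2 calls and both compounds together 4. All other alternatives gave 0 calls for Nif and for both, and leaving out 1 rat at a time from the values reported gave 0 to 0 in all 4 comparisons. The cause of these changes was not tested.

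The replicate numbers that CFX and Nif share were not taken to pair the rats, and the methods describe no pairing. The deviations of same-numbered rats correlated at -0.249, 0.133 and -0.513. These run over miRNAs, not over independent rats, and cannot settle whether rats were paired. With the number as a replicate block, 0 miRNAs were called between CFX and Nif, 12 had an unadjusted p under 0.05 and the smallest adjusted p was 0.478. The difference in size of change between NC and carcinogens passed 0.05 with the value table (-0.23, exact permutation p = 0.0303), with normexp (-0.136, p = 0.0455) and as a median (-0.0159, p = 0.0303), but not with the processed signal (-0.18, p = 0.197, and -0.137, p = 0.273), and elsewhere p was 0.0606.

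Of 2056 values of named miRNAs under the alternatives, 1421 moved by less than 1 SD between rats, 612 moved by more and 23 became called. With 3 rats a group, intervals on the reported scale are narrow partly because background was left in. On the processed signal over detected miRNAs the 95% interval lay within -1 to 1 for 122 of 162 miRNAs in CFX and 122 in Nif, and reached beyond it for 40 in each, of which 9 were detected on all 9 arrays.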
